A study of Arabidopsis thaliana with 23 samples.

Results

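H4ac and H3K27me3 were set against each other in untreated wild-type *Arabidopsis thaliana* seedlings, with 4 of the 23 listed samples: 2 biological replicates of ChIP-Seq with an antibody against tetra-acetylated histone H4 (H4ac) and 2 with an antibody against histone H3 trimethylated at lysine 27 (H3K27me3). The plants were whole 12-day-old seedlings of the DR5 line in the Col-0 background, which is the wild type (WT) of the study, moved for 3 h to mock plates without methyl jasmonate (MeJA). The remaining antibody libraries, used here only to see where a mark persisted, came from *axe1-5* seedlings, which carry a mutation in the histone deacetylase gene *HDA6*, with and without 50 µM MeJA, and from WT with MeJA. DR5 carries an auxin-responsive reporter and is the line the study names as the wild type of *axe1-5*. A gene was placed by where the summits of the peaks fell, the summit being the base at which a peak was highest. Of 37899 annotated nuclear genes, 10773 had a summit of H4ac in both replicates and none of H3K27me3 (H4ac only), 1909 had H3K27me3 in both replicates and no H4ac (H3K27me3 only), 94 had both marks in both replicates (both marks), and 19386 had no summit of either mark in any of the 4 lists (neither mark). The other 5737 genes had a mark in 1 replicate only and were left unclassified.

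Nucleosomes with acetylated H4 tails are found at the 5′ ends of transcribed genes, where acetylation loosens contacts between histones and DNA and is read by bromodomain proteins. H3K27me3 is written by Polycomb repressive complex 2 and keeps developmental genes silent in tissues where they are not used, and in plants it is removed by jumonji demethylases such as REF6. In a seedling the floral organ identity genes and the embryo programme are the best known Polycomb targets. A whole seedling holds many cell types, so 2 marks on 1 gene can lie on the same chromatin or in different cells, and these cannot be told apart here.

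The H4ac libraries kept 5927987 and 3235473 tags (aligned reads after removal of duplicates) in replicates 1 and 2 and gave 12065 and 12862 peaks, against 1976886 and 8681380 tags and 5508 and 7023 peaks for H3K27me3. Both antibodies of a replicate were set against the same input, with 7074642 tags in replicate 1 and 4796755 in replicate 2. The values given below for genes are the fold enrichments of the peak caller in replicates 1 and 2, the ChIP signal of a peak over the level modelled from the input. The same value can come with different tag counts. In H3K27me3 replicate 1, *STM*, *KNAT2* and *WUS* each had 13.1 with 68, 34 and 14 tags. Since antibody and depth differ, the values are not compared between the marks. The fragment length modelled by the peak caller was 313 and 266 bp for H4ac, against 52 and 54 bp for H3K27me3, which is close to the read length. The H3K27me3 library of replicate 1 was the shallowest of the 4, with a median of 15 tags per peak. Absence of a summit means that none was listed, not that the mark was missing.

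Replicates placed H4ac on largely the same genes. H4ac summits fell in 12356 and 13079 genes in replicates 1 and 2, and 11011 genes were shared, which is 89.1% of the first list and 84.2% of the second. H3K27me3 summits fell in 2388 and 4236 genes, and the 2097 shared genes made up 87.8% of the list of replicate 1 and 49.5% of that of replicate 2. The deeper library of replicate 2 gave 2139 genes that replicate 1 did not list, against 291 the other way. Over all nuclear genes, H4ac was called in both replicates in 29.1% and H3K27me3 in 5.53%; over the 27444 protein-coding genes these shares were 38.1% and 7.26%.

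The classes of all nuclear genes were 28.4% H4ac only, 5.04% H3K27me3 only, 0.248% both marks, 51.2% neither mark and 15.1% unclassified. Among protein-coding genes alone the shares were 37.3% (10230 genes), 6.61% (1815), 0.324% (89), 37.0% (10162) and 18.8% (5148). The marks seldom met on a gene. Of the 2097 genes with H3K27me3 in both replicates, 4.48% also had H4ac in both (95% Wilson interval 3.68 to 5.45%, counting error only), against 32.3% of the 33372 genes without an H3K27me3 summit in either replicate (31.8 to 32.8%). Another 94 of these H3K27me3 genes had H4ac in 1 replicate, and 1909 (91.0%) had it in neither. The share of 4.48% was 6.85% with replicate 2 alone, 7.37% with replicate 1 alone, 17.6% when 2000 bp upstream were added to each gene, and 0.634% with equal numbers of peaks. Seen from the acetylated genes, 94 of 11011 (0.854%) had H3K27me3 in both replicates. The count of 94 was the least stable of the classes: it was 290 with replicate 2 alone, 176 with replicate 1 alone, 10 when only peaks with a score of at least 100 (a p-value from the peak caller on a log10 scale, higher for stronger peaks) were kept, and 13 with the 5508 best peaks of every list. The class H3K27me3 only held 3946 genes with replicate 2 alone.

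Overlap was also small when whole peaks were compared. In replicate 1, 220 of 12065 H4ac peaks (1.82%) touched an H3K27me3 peak, and 282 of 5508 H3K27me3 peaks (5.12%) touched an H4ac peak. In replicate 2 the shares were 420 of 12862 (3.27%) and 444 of 7023 (6.32%). H4ac peaks covered 25.6 and 20.3 Mb, against 1.48 and 6.95 Mb for H3K27me3, and the bases under both marks were 0.0641 and 0.216 Mb. These were 4.32% and 3.10% of the H3K27me3 bases, while H4ac peaks covered 21.5% and 17.0% of the chromosomes.

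The marks sat differently on genes. Of H4ac summits, 87.5% and 87.6% lay within 1000 bp downstream of the nearest protein-coding gene start, against 44.4% and 47.2% of H3K27me3 summits, a difference of 41.8 percentage points. Inside an annotated gene lay 98.7% and 98.6% of H4ac summits, against 70.2% and 73.7% of H3K27me3 summits, a difference of 26.7 points. The median peak length was 1852 and 1456 bp for H4ac, against 201 and 717 bp for H3K27me3 (a difference of 1195 bp), and the H3K27me3 replicates themselves differed severalfold. In all of these measures both H4ac libraries lay above both H3K27me3 libraries, but 2 libraries against 2 cannot give a two-sided exact permutation p below 0.333, which is the value each comparison gave, and the depth and modelled fragment length differed between the marks too.

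Within the classes, H4ac summits formed a sharp peak behind the gene start. In H4ac only protein-coding genes the median summit was 344 and 334 bp downstream of the start in replicates 1 and 2, and 78.0% and 78.5% of summits were within the first 500 bp. In H3K27me3 only genes the median was 620 and 572 bp, with 39.1% and 44.0% within the first 500 bp and 27.1% and 25.8% beyond 1000 bp. H4ac summits were also placed more repeatably: the summits of replicates 1 and 2 were a median of 40 bp apart in the H4ac only genes and 225 bp apart in the H3K27me3 only genes. By the transcript with the longest coding sequence, the H4ac summits of H4ac only genes fell in coding sequence (65.5% and 65.6%), introns (21.0% and 18.8%) and the 5′ UTR (11.8% and 13.7%). The H3K27me3 summits of H3K27me3 only genes fell in coding sequence (68.3% and 80.8%), introns (21.8% and 13.9%) and the 5′ UTR (4.85% and 3.31%).

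**Figure D1:**
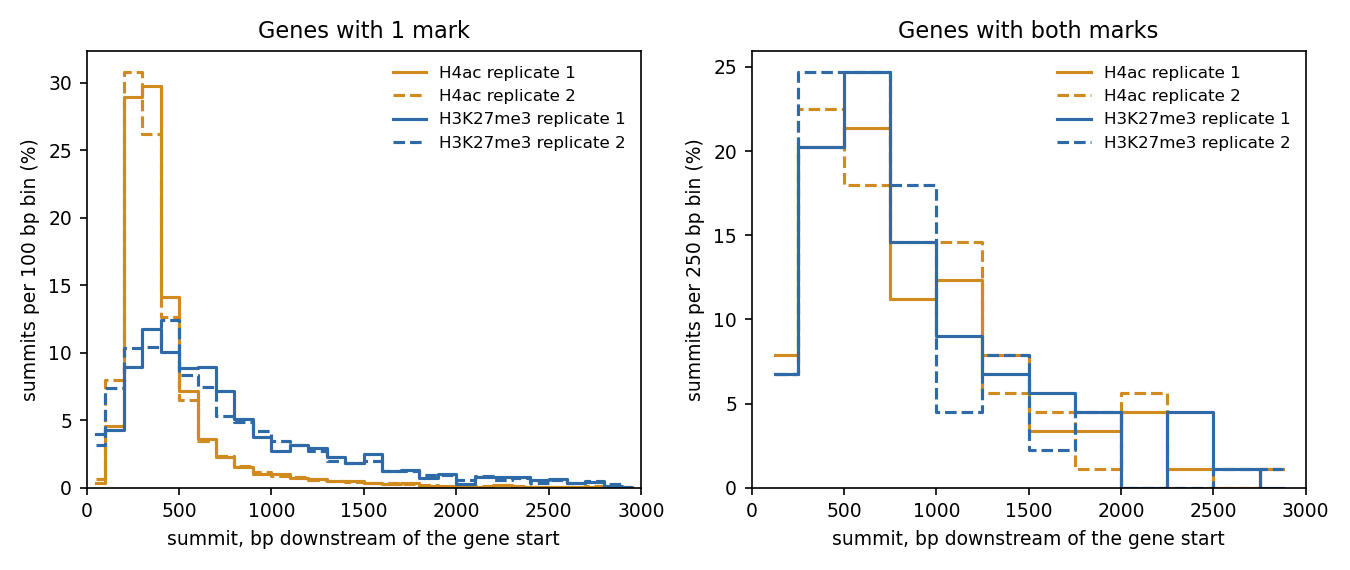
Distance of the summit from the gene start (x axis, bp) against the share of summits in each bin (y axis, %), for protein-coding genes with 1 mark (left, H4ac summits of H4ac only genes and H3K27me3 summits of H3K27me3 only genes) and with both marks (right). Solid lines are replicate 1 and dashed lines replicate 2; H4ac summits of H4ac only genes pile up near 344 and 334 bp, while in genes with both marks the medians of H4ac are 753 and 775 bp and those of H3K27me3 are 726 and 700 bp.

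Ranked by the lower of the replicate fold enrichments, the first 5 H4ac only genes were *LpxC5*, *LpxC3*, *ASIL2*, *PFK2* and *LpxC1*. *PFK2* (AT5G47810), a phosphofructokinase of glycolysis, had a fold enrichment of 16.9 and 22.9 and summits 308 and 296 bp from its start. *ASIL2* (AT3G14180), a trihelix repressor related to the one that silences seed maturation genes in seedlings, had 18.5 and 17.2. The *LpxC* genes encode deacetylases of a lipid A-like pathway and are near-identical tandem copies on chromosome 1, so reads cannot be divided safely among them and their values (16.8 to 22.6 in all replicates of the 3 genes) are uncertain. The stretch of 120 bases around the H4ac summit of *PFK2* in replicate 1, all coding, is shown as an example of where this mark peaks, on the gene's strand with the summit base in capitals (TAIR10.1, chr5:19357757-19357876, minus strand).
*PFK2*, H4ac: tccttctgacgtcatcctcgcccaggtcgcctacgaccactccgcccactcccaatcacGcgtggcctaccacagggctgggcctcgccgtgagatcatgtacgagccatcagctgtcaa

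The first 5 H3K27me3 only genes by the same ranking were *SAP*, *NAC105*, *AFO*, *AT5G51800* and *AG*. Of these, 4 encode known or predicted regulators of development. *SAP* (STERILE APETALA), a regulator of flower and organ growth, had a fold enrichment of 26.3 and 21.9. *NAC105*, a NAC factor of the xylem vessel group, had 22.3 and 19.3. *AFO* (FILAMENTOUS FLOWER), a YABBY factor of abaxial organ identity, had 19.4 and 18.9. *AG* (AT4G18960), the MADS factor that specifies stamens and carpels, had 19.7 and 18.8, with summits 610 and 598 bp from its start. The 120 bases around the summit of *AG* in replicate 2 lie wholly in an intron and are shown with the summit base in capitals (TAIR10.1, chr4:10383394-10383513, plus strand).
*AG*, H3K27me3: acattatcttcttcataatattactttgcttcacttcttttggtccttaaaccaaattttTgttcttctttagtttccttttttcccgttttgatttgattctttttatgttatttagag

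Of the 13 floral organ MADS genes, 11 were H3K27me3 only, 0 were H4ac only and all 13 had an H3K27me3 summit in both replicates, where 6.61% of protein-coding genes were H3K27me3 only. Fold enrichments of H3K27me3 ran between 8.01 and 19.7 in replicate 1 and between 10.9 and 19.8 in replicate 2. *AP1*, which specifies the floral meristem and sepals, had 17.1 and 19.8. *PI* (petals and stamens) and *SEP4* were left out of the class only because each had an H4ac summit in 1 replicate, with a fold enrichment of 4.86 in replicate 2 for *PI* and 5.01 in replicate 1 for *SEP4*.

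In the seed maturation list 8 of 11 genes (72.7%) were H3K27me3 only, against 6.61% of protein-coding genes. *LEC2* and *ABI3*, master regulators of the embryo programme, had H3K27me3 fold enrichments of 21.0 and 17.7 (*LEC2*) and 21.0 and 17.6 (*ABI3*). The storage protein genes *CRA1* (13.7 and 16.2) and *CRU3* (17.1 and 19.3) were also in this class, so the mark lay over both regulators and their late targets. *DOG1*, which sets seed dormancy, was the exception with both marks, at 6.06 and 7.37 for H4ac and 8.6 and 14.1 for H3K27me3. *L1L* and *AGL15* had neither.

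In the meristem list 9 of 15 genes were H3K27me3 only, against 6.61% of protein-coding genes. *WUS*, the stem cell organiser of the shoot, had 13.1 and 17.2, and *STM*, which keeps the shoot meristem undifferentiated, had 13.1 and 14.99. *CUC2*, a NAC factor of organ boundaries, had the highest value of the list in replicate 1 (21.8, with 14.4 in replicate 2). *KNAT1* and *CUC1* had H3K27me3 in replicate 2 only, so 13 of 15 genes carried the mark there and 11 in replicate 1, where 3904 and 2204 of 27444 protein-coding genes did. The receptor kinase gene *CLV1* (H4ac of 6.50 and 7.94) and *SCR* (5.51 and 5.57) were H4ac only, and the root regulators *SHR* and *PLT2* had both marks.

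Flowering time genes were divided. Of the 15 listed, 3 (20%) were H4ac only and 4 (26.7%) H3K27me3 only, against 37.3% and 6.61% of protein-coding genes. *SVP* (H4ac of 4.52 and 5.34), *FLM* (5.93 and 7.59) and *MAF2* (7.75 and 11.5), which delay flowering, were H4ac only. *FT*, the mobile signal that triggers flowering, was H3K27me3 only (12.5 and 13.6), as were *LFY* (10.0 and 18.1), *AGL24* (10.9 and 11.5) and *MAF5* (11.5 and 12.0). *FLC*, the repressor that cold silences through Polycomb, had H3K27me3 of 15.8 and 20.3 and an H4ac summit in replicate 1 only (5.87). *TSF*, *SOC1*, *TFL1* and *MAF4* had an H3K27me3 summit in replicate 2 only. Without that deeper library 5 of the 15 genes had the mark, against 9 without replicate 1. Of 27444 protein-coding genes, 2204 had it in replicate 1 and 3904 in replicate 2.

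Genes of the Polycomb machinery and of H3K27 demethylases carried H4ac in 1 or both replicates in 13 of 19 cases, where 13579 of 27444 protein-coding genes did. The list holds long genes, the shortest being *MSI1* with 2234 bp. H4ac only took 47.5% of protein-coding genes of 2079 to 3030 bp and 50.7% of longer ones. In the list 9 genes (47.4%) were H4ac only, close to these shares, against 37.3% of all protein-coding genes. These included *TFL2* (8.91 and 9.55), whose protein binds H3K27me3, the complex member *FIE* (5.25 and 6.66), and the demethylase genes *REF6* (5.13 and 6.12), *ELF6* (4.77 and 4.43) and *JMJ13* (5.26 and 8.11). *MEA*, the seed-specific methyltransferase (H3K27me3 of 10.5 and 10.9), and *VIN3*, the cold-induced partner (10.5 and 13.2), were H3K27me3 only. *EMF1*, which acts with Polycomb to hold back flowering, had both marks, at 5.02 and 6.86 for H4ac and 12.0 and 18.1 for H3K27me3. *CLF*, *VRN2* and *MSI1* counted as neither although an H4ac peak touched each of them in both replicates, because its summit lay outside the gene.

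**Figure D2:**
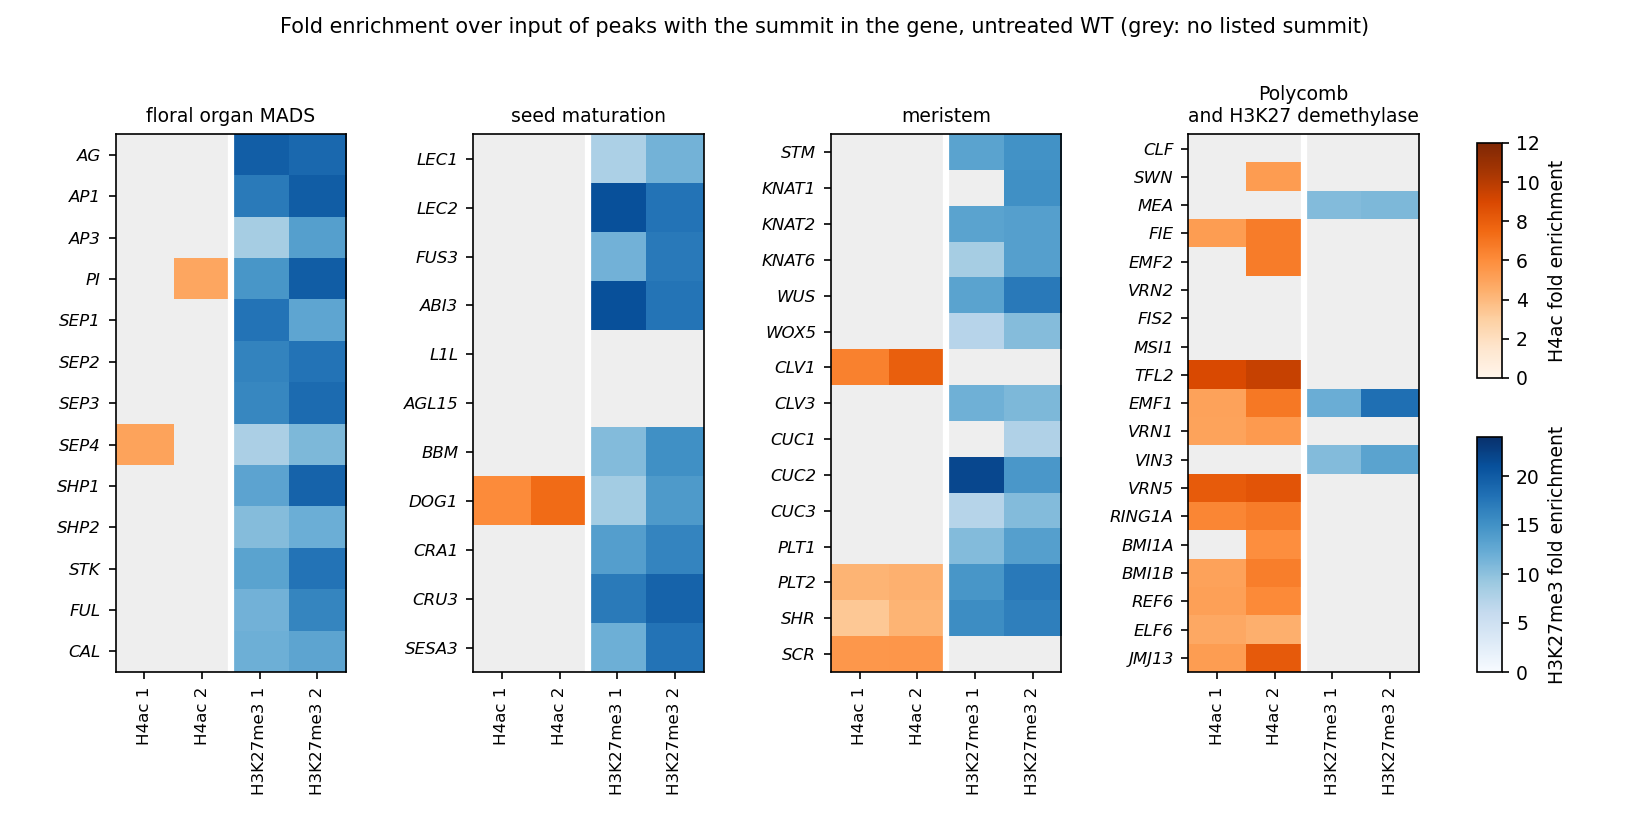
Fold enrichment over input (colour) of peaks with their summit in the gene, for 4 gene lists (rows are genes, columns the replicates of H4ac, left, and H3K27me3, right); the marks have separate colour scales because their values are not on one scale, and grey means that no summit was listed. All 13 floral organ MADS genes are coloured in both H3K27me3 columns, while 9 of 19 Polycomb and demethylase genes are coloured in both H4ac columns and in neither H3K27me3 column.

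The 13 circadian clock genes carried no H3K27me3 summit in either replicate, a mark that 7.26% of protein-coding genes had in both, so that few would be counted among 13 genes at that share. H4ac only held 4 of them (30.8%, against 37.3% of protein-coding genes): *ZTL* (7.28 and 8.78), *ELF3* (4.58 and 5.30), *PRR5* (4.04 and 5.04) and *PRR9* (3.15 and 3.31). *CCA1* and *RVE8*, transcription factors of the morning, had neither mark and were touched by no peak of either. Of 17 jasmonate genes, 6 (35.3%) were H4ac only, near the 37.3% of all protein-coding genes, among them *MYC2*, the main transcription factor of the response (8.28 and 9.18), *COI1*, the receptor gene (4.25 and 4.29), and *AOS*, of jasmonate synthesis (6.75 and 8.78). *VSP2*, a vegetative storage protein gene induced by jasmonate, was H3K27me3 only (10.5 and 14.1). *JAZ10* had H4ac in both replicates (3.30 and 3.72) and H3K27me3 in replicate 2 (9.05).

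Genes that every cell uses were not all acetylated by this rule. Of 8 reference genes only *ACT7* (5.23 and 6.24) and *UBQ10* (4.99 and 4.93) were H4ac only. Another 3 had H4ac in 1 replicate and 3 had neither mark, while H4ac peaks touched 6 of the 8 in both replicates. None had H3K27me3. Of all protein-coding genes, 37.3% were H4ac only and 37.0% had neither mark, and H4ac peaks touched 14282 of 27444 in both replicates. Of 6 shoot markers, genes of photosynthesis, 5 had an H4ac summit in 1 replicate and none in the other, with fold enrichments of 3.32 to 5.99, and 0 had H3K27me3. Of 6 root markers, 0 had an H4ac summit, all 6 had H3K27me3 in replicate 2 (9.61 to 14.6) and 3 also in replicate 1: *EXPA7* of root hairs, *PLT1* and *WOX5*. Of all 27444 protein-coding genes, 13579 carried H4ac in 1 or both replicates, and 3904 and 2204 had H3K27me3 in replicates 2 and 1. The lists thus held marks over genes of both organs, and fewer cells with a mark and less of it per cell cannot be told apart in whole seedlings.

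Families defined by words in the product names differed widely in their classes. H4ac only held 28 of 41 proteasome subunits (68.3%), 146 of 262 pentatricopeptide repeat proteins (55.7%), which process organelle RNA, 189 of 344 ribosomal proteins (54.9%), 92 of 169 translation factors (54.4%), 39 of 72 photosystem and light-harvesting proteins (54.2%) and 73 of 146 RNA helicases and splicing factors (50.0%), against 37.3% of all protein-coding genes. H3K27me3 only was rare in these families, with 0 proteasome subunits, 0 photosystem proteins and 9 ribosomal proteins (2.62%). Gene length moved with these shares: H4ac only took 13.8%, 37.1%, 47.5% and 50.7% of protein-coding genes from the shortest to the longest length quartile. Ribosomal protein genes had a median length of 1565 bp, and genes of the same length quartiles were H4ac only in 31.6%, so their share lay above that of genes of like length. For pentatricopeptide repeat genes the matched share was 43.2% and for proteasome subunits 45.2%.

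Transcription factor families stood at the other end. H3K27me3 only held 30 of 107 NAC factors (28.04%), 20 of 72 WRKY factors (27.8%), 41 of 155 MYB factors (26.5%), 29 of 121 MADS-box factors (23.97%), 19 of 94 homeobox factors (20.2%), 26 of 133 bHLH factors (19.5%) and 19 of 111 AP2/ERF factors (17.1%), against 6.61% of all protein-coding genes. Genes of the same length quartiles were H3K27me3 only in 6.45 to 7.61% for these families. With replicate 2 alone as the measure, 48 NAC, 33 WRKY, 70 MYB and 49 MADS-box genes had an H3K27me3 summit, and with replicate 1 alone 30, 23, 46 and 34. Of all 27444 protein-coding genes, 3904 had one in replicate 2 and 2204 in replicate 1. The families were not uniform in the other mark: 40 AP2/ERF factors (36.0%) but only 12 NAC (11.2%) and 8 MADS-box factors (6.61%) were H4ac only. Of all protein-coding genes 37.3% were H4ac only, and of genes of the same length quartiles 28.1% (AP2/ERF), 37.1% (NAC) and 30.1% (MADS-box). Of 97 B3 factors, many of them reproductive, 66 (68.0%) had neither mark and 6 (6.19%) were H3K27me3 only, so not every regulatory family was marked. Neither mark was found in 37.0% of all protein-coding genes and in 41.0% of those of the same length quartiles as B3 factors.

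Some enzyme families were shared between the marks, where all protein-coding genes were 37.3% H4ac only and 6.61% H3K27me3 only. Cytochromes P450 were H4ac only in 52 of 248 genes (20.97%, with 41.5% at the same lengths) and H3K27me3 only in 48 (19.4%, with 6.95%). Peroxidases were H4ac only in 20 of 101 (38.1% at the same lengths) and H3K27me3 only in 28 (27.7%, with 7.53%). Pectin-modifying enzymes were 26 and 26 of 132 (19.7% each, with 42.5% and 6.53% at the same lengths). F-box proteins, the specificity subunits of ubiquitin ligases, were H4ac only in 103 of 653 (15.8%, with 27.7% at the same lengths) and H3K27me3 only in 111 (17.0%, with 7.86%). NBS-LRR resistance proteins were H4ac only in 69 of 141 (48.9%) and H3K27me3 only in 8 (5.67%), close to the 50.2% and 4.31% of genes of the same length quartiles. Defensin-like genes, short genes of a median of 539 bp, had neither mark in 98 of 113 (86.7%), where genes of the same length quartiles had neither in 58.0%. The auxin-responsive *SAUR* and *IAA* genes had neither in 57 of 96 (59.4%, with 54.8% at the same lengths).

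**Figure D3:**
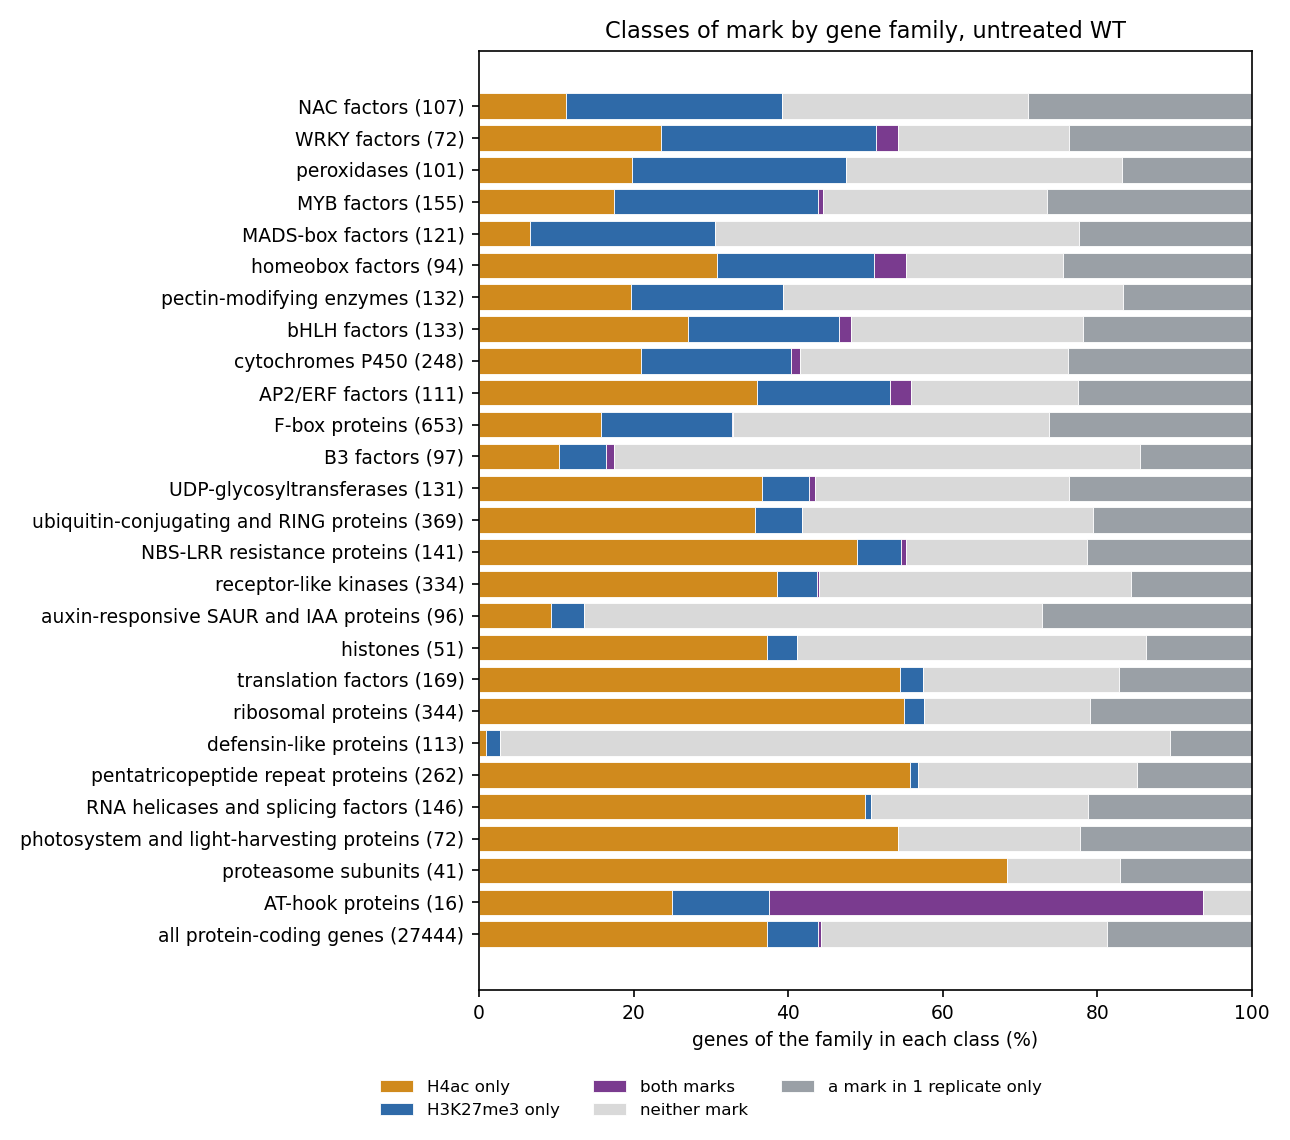
Share of each gene family in each class (x axis, %; bars are stacked to 100%, with the number of genes in parentheses), ordered by the H3K27me3 only share, with the 16 genes named AT-hook and all protein-coding genes at the bottom. NAC factors are 11.2% H4ac only and 28.04% H3K27me3 only, and proteasome subunits are 68.3% and 0%, where all protein-coding genes are 37.3% and 6.61%.

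H4ac only genes were long and rich in exons. Their median length was 2493 bp (protein-coding genes, interquartile range 1848 to 3436), with a median of 5 exons, against 2078 bp and 4 exons for all protein-coding genes. H3K27me3 only genes had a median of 1781 bp and 3 exons, genes with both marks 2140 bp and 2 exons, and genes with neither 1630 bp and 3 exons. Genes of a lone exon made up 15.4% of H4ac only, 26.997% of H3K27me3 only, 40.4% of both marks and 24.7% of neither, against 20.5% of all. A longer gene offers more room for a summit, which is part of the rule, so the lengths describe the classes and were not tested. Counted over all nuclear genes, H4ac only genes overlapped another annotated gene in 35.9%, H3K27me3 only in 10.7%, both marks in 21.3%, neither in 26.9% and unclassified in 26.1%. A summit in a shared stretch counts for both genes: *PUB23* and *AT2G35935* are such a pair among the genes with both marks.

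H3K27me3 only genes were often adjacent. Of the 1815 protein-coding genes of this class, 635 (35.0%) had a protein-coding neighbour of the same class, where 12.4% of all protein-coding genes had such a neighbour. For H4ac only genes the shares were 59.7% and 60.1%, which is no more than for any gene. Runs of at least 3 consecutive H3K27me3 only genes numbered 58 and held 207 genes. The longest, 11 protein-coding genes over 63.2 kb of chromosome 4 (8716504 to 8779685), contained the triterpene synthase genes *PEN1* (H3K27me3 of 12.1 and 13.6) and *BARS1* (10.5 and 13.6) with *CYP702A2*, *CYP702A3*, *CYP705A1*, *CYP705A2*, *CYP705A3*, *UGT71B5* and cellulose synthase-like genes, a stretch of specialised metabolism. H3K27me3 ran between 7.63 and 15.8 in replicate 1 and between 9.38 and 17.7 in replicate 2 over these 11 genes, which by the rule of the class hold no H4ac summit. The second longest run, of 7 genes on the same chromosome, consisted of glycosyl hydrolase genes, *AT4G19720* to *AT4G19800*. Tandem copies such as these can share reads.

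The 250 bp upstream of protein-coding genes differed in short motifs between the classes. The telo-box AAACCCTA, a motif known to recruit Polycomb proteins in *Arabidopsis*, was found on either strand in 3.24% of H4ac only, 9.15% of H3K27me3 only (166 of 1815), 2.25% of both marks (2 of 89) and 4.51% of neither, against 4.49% of all. The site II element TGGGCC, common in promoters of ribosomal protein genes, was found in 16.0% of H4ac only, 5.95% of H3K27me3 only, 5.62% of both marks and 11.9% of neither, against 13.7% of all. TATAAA, on either strand, was present in 45.8%, 59.2%, 48.3% and 46.2% of the classes in that order and in 47.3% of all, and on the gene's strand in the last 60 bp in 10.6%, 20.7%, 14.6% and 13.2%, with 12.7% of all. GAGAGAGA was in 4.15%, 6.56%, 7.87% and 5.56%, and in 4.91% of all. The motif counts are descriptions of letters, and the GC content of these stretches differed little, with medians of 30.8%, 30%, 29.6% and 32.0%.

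Promoter stretches of 120 bases are shown for the ribosomal protein genes of H4ac only and for the H3K27me3 only genes with the highest lower-replicate fold enrichment among those that hold the motif, are not copies of another promoter and overlap no annotated gene upstream (reference genome TAIR10.1, gene strand, motif in capitals on either strand). The first 3 are H4ac only genes with site II: *AT3G09630*, of the L4/L1 family, with H4ac of 9.68 and 10.2 (chr3:2953503-2953622, motif 127 bp before the start), *AT1G33120*, of the L6 family, with 8.94 and 8.61 (chr1:12010759-12010878, 19 bp), and *AT3G13120*, of the S10p/S20e family, with 8.51 and 7.52 (chr3:4221725-4221844, 115 bp). The other 3 are H3K27me3 only genes with a telo-box: the protein kinase gene *AT5G51800*, with H3K27me3 of 21.0 and 18.8 (chr5:21048067-21048186, 60 bp), *AT3G60650*, of unknown function, with 16.4 and 16.3 (chr3:22418865-22418984, 231 bp), and *AT2G28810*, of the Dof zinc finger family, with 15.8 and 18.8 (chr2:12363259-12363378, 103 bp).
*AT3G09630*: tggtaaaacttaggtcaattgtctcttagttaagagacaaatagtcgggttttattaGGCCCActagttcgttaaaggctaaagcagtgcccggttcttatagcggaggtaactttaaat
*AT1G33120*: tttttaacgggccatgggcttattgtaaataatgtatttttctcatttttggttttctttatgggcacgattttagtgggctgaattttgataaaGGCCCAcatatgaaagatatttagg
*AT3G13120*: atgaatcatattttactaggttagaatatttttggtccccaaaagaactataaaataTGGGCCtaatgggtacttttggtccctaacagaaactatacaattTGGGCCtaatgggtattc
*AT5G51800*: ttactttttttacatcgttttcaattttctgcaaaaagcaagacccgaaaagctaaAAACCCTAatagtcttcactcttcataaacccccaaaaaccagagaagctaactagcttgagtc
*AT3G60650*: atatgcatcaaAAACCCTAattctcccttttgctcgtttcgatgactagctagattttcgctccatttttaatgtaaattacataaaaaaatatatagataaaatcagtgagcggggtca
*AT2G28810*: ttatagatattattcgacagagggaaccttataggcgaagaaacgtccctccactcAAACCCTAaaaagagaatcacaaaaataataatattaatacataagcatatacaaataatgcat

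The 94 genes with both marks had the median H3K27me3 fold enrichment of H3K27me3 only genes and the weaker end of the H4ac range. Their H4ac fold enrichment had a median of 4.98 and 5.22 in replicates 1 and 2, against 6.13 and 7.20 in H4ac only genes of the same lists. Their H3K27me3 had a median of 10.5 and 13.0, the same as in H3K27me3 only genes (10.5 and 13.0). In replicate 1 the unclassified genes with a summit also had a median of 10.5. Single values recur across genes in that list (the lower quartile was 9.19 in each of these groups), so equal medians there can be ties. The median H3K27me3 score of the genes with both marks was 92.0 and 436, against 80.6 and 520 in H3K27me3 only genes, so no direction held. H4ac summits lay deeper in the genes with both marks, at a median of 753 and 775 bp from the start of the 89 protein-coding members. Of these summits 28.1% and 29.2% were within the first 500 bp. An H4ac summit lay nearer to the start of another protein-coding gene than to its own in 16 and 15 of the 89, which is 17.98% and 16.9%, where the share in H4ac only genes was 4.76% and 4.82%.

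The lists of the other conditions, which had no part in choosing these genes, gave the same position. Over the 6 other H4ac libraries the median H4ac summit of the genes with both marks was 715 to 798 bp from the start, against 322 to 353 bp in H4ac only genes, with no overlap. The H4ac fold enrichment of the genes with both marks was below that of H4ac only genes in 6 of 6 libraries, with differences between -2.51 and -0.06. For H3K27me3 it was below that of H3K27me3 only genes in 3 of 5, with differences between -1.11 and 4.18, so no direction held.

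H4ac and H3K27me3 summits in the same gene lay at widely differing distances. The H3K27me3 summit lay inside the H4ac peak in 65 of 94 genes in replicate 1 and 63 in replicate 2, and within 200 bp of the H4ac summit in 31 and 34. It was downstream of the H4ac summit in 49 and 48 genes, in 39 of them in both replicates, so neither mark led along the gene. *NRT1.1*, the nitrate transporter and sensor, is an example of separate summits: H4ac of 6.57 and 7.59 peaked 1192 and 1156 bp from the start and H3K27me3 of 8.17 and 12.5 at 3822 and 3803 bp. *TT7*, the flavonoid 3′-hydroxylase gene, had the opposite order, with H4ac (5.61 and 7.48) at 1424 and 1436 bp and H3K27me3 (8.70 and 13.0) at 425 and 398 bp. In *CYP79B2*, which opens the route from tryptophan to indole glucosinolates, H4ac (5.38 and 7.38) peaked at 2098 and 2095 bp, close to the 3′ end, and H3K27me3 (11.3 and 20.9) at 696 and 972 bp. These 3 genes were chosen after their values were seen.

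**Figure D4:**
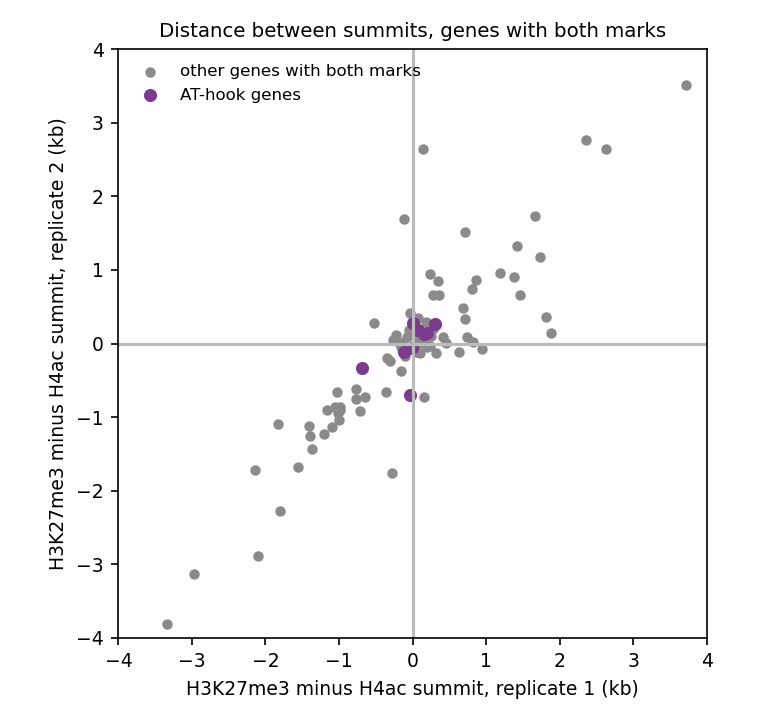
Position of the H3K27me3 summit minus that of the H4ac summit along the gene (kb, positive when H3K27me3 is further from the gene start) in replicate 1 (x axis) and replicate 2 (y axis) for the 94 genes with both marks; AT-hook genes are in purple. The points spread to both sides of 0, with 49 and 48 genes above 0 in replicates 1 and 2.

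Ranked by the lowest of a gene's ranks in the 4 lists, the first 5 protein-coding genes with both marks were *PEL3*, *RALFL17*, *AT4G31250*, *APE1* and *AT5G25990*. *PEL3*, an acyltransferase needed for the cuticle, had H4ac of 10.9 and 11.5 at 2781 and 2839 bp, near its 3′ end, and H3K27me3 of 13.5 and 13.0 at 983 and 560 bp. *RALFL17*, a small peptide gene, had H4ac of 7.22 and 8.94 near its start (137 and 159 bp) and H3K27me3 of 11.7 and 13.0 at 1001 and 1026 bp. *APE1*, needed to acclimate photosynthesis to light, had H4ac of 6.13 and 7.72 and H3K27me3 of 14.3 and 13.6. *AT4G31250*, a leucine-rich repeat kinase gene, had H4ac of 7.18 and 7.92 and H3K27me3 of 11.1 and 15.3, and *AT5G25990*, of a glycosyltransferase family, 6.86 and 6.90 with 13.1 and 10.9. *PEL3* and *APE1* were also among the 10 genes left at a score of at least 100 and the 13 left with equal numbers of peaks.

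Several members of the class regulate growth or hormone responses in the seedling. *PYL6*, an abscisic acid receptor gene, had H4ac of 6.75 and 9.22 and H3K27me3 of 10.7 and 7.45. *NCED5*, of abscisic acid synthesis, had 6.33 and 7.22 for H4ac and 9.19 and 13.7 for H3K27me3. *ALMT12*, an anion channel gene of guard cells, had 6.35 and 5.47 with 11.3 and 10.7. Transcription factor genes included *WRKY57* (4.93 and 5.23 with 9.81 and 12.2), *MYB94* of wax synthesis (3.93 and 3.45 with 10.5 and 15.1), *KAN2* of abaxial leaf identity (2.87 and 5.02 with 15.8 and 13.0) and *HEC1* (6.62 and 4.90 with 9.51 and 10.1). Product names with "transcription factor" or "DNA-binding" were held by 2.62% of H4ac only, 6.34% of H3K27me3 only, 19.1% of both marks (17 of 89) and 2.25% of neither, against 2.89% of all protein-coding genes. These genes and words were chosen after the values were seen, so the shares describe the list. Among the 17 are the AT-hook genes *ESC*, *SOB3*, *GIK*, *AT4G12050*, *AT4G17800* and *AT4G22810*, described below, so this share and that of the genes named AT-hook are not separate. The product names of *MYB94* and *KAN2* lack these words.

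The root regulators *SHR* and *PLT2* carried both marks. *SHR*, a GRAS factor that moves from the stele to pattern the root ground tissue, had H4ac of 3.34 and 4.24, with summits at 665 and 1444 bp, and H3K27me3 of 15.4 and 16.7, with summits at 1299 and 1326 bp. Its H4ac summit thus differed between replicates by more than the distance between the marks in either replicate. *PLT2*, which maintains root stem cells, had H4ac of 4.22 and 4.39 and H3K27me3 of 14.5 and 17.2. Its H4ac summits lay near the 3′ end, at 3055 and 3069 bp of 3443 bp, and its H3K27me3 summits at 959 and 174 bp. The 120 bases around the summits of *SHR* in replicate 1 are both coding and are shown with the summit base in capitals (TAIR10.1, plus strand, chr4:17692292-17692411 for H4ac and chr4:17692926-17693045 for H3K27me3).
*SHR*, H4ac: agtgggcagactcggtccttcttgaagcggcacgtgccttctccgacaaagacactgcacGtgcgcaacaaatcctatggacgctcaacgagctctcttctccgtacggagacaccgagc
*SHR*, H3K27me3: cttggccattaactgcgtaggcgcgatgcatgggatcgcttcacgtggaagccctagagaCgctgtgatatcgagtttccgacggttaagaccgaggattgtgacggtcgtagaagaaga

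Of 16 protein-coding genes whose product name holds "AT-hook", DNA-binding proteins of AT-rich sequence that restrain seedling growth and act in flower development, 9 had both marks (56.3%, against 0.324% of all protein-coding genes), 4 were H4ac only, 2 H3K27me3 only and 1 neither. The group was noticed after the values were seen and was not tested. AT-hook genes whose product name is spelled otherwise were not counted, so the share is of these 16 genes and not of the whole family. The 9 were *ESC*, *SOB3*, *GIK*, *AHL19*, *AHL20*, *AHL22*, *AT4G12050*, *AT4G17800* and *AT4G22810*, each a lone exon of 1471 to 2515 bp. Their H4ac fold enrichment was 2.75 to 5.97 in replicate 1 and 3.57 to 5.57 in replicate 2, low in the range of the 94 genes (2.75 to 10.9 and 3.36 to 12.3). Their H3K27me3 was 11.3 to 14.9 and 11.5 to 23.5, with medians of 13.8 and 17.2, above those of the class.

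*AHL19* had the highest H3K27me3 of the class in replicate 2, with 14.9 and 23.5, and H4ac of 4.98 and 4.24. Its H4ac summits were 1120 and 1057 bp from the start and its H3K27me3 summits 999 and 946 bp. *SOB3*, which shortens the hypocotyl in the light, had H4ac of 3.64 and 4.86 at 723 and 775 bp and H3K27me3 of 13.1 and 19.8 at 873 and 910 bp. *GIK*, a target of *AG* in the flower, had 4.44 and 4.69 with 14.5 and 11.5. The place of the 9 AT-hook genes in the class depended on the peaks kept. At a score of at least 100, 3 of the 9 kept both marks, at a false discovery rate (FDR) of at most 5% 4 did, and with equal numbers of peaks 1 did. The 120 bases around the summits of *AHL19*, coding in both cases, are shown with the summit base in capitals (TAIR10.1, plus strand, chr3:1231806-1231925 for H4ac in replicate 1 and chr3:1231632-1231751 for H3K27me3 in replicate 2).
*AHL19*, H4ac: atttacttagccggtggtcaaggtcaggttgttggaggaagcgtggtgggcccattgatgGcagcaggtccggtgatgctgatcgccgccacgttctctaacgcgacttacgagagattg
*AHL19*, H3K27me3: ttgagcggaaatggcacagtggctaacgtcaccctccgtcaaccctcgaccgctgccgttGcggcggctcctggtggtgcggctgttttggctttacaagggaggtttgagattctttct

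Genes with neither mark were a mixed class. Of the 10162 protein-coding members, 2235 (22.0%) were touched by an H4ac peak in both replicates whose summit lay elsewhere, 24 (0.236%) by an H3K27me3 peak in both, and 6980 (68.7%) by no peak of either mark in any list. *EF1A*, *UBC21*, *JAZ1* and *CO* were among the genes touched by H4ac peaks in both replicates. *GAPC1*, *LOX2* and *CCA1*, genes that are expressed in leaves, were touched by none.

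Genes that were H4ac only in untreated WT had an H4ac summit in 83.8 to 97.4% of cases over the 6 other H4ac libraries. They had an H3K27me3 summit in 0.0835 to 1.09% over 5 other H3K27me3 libraries. Over all nuclear genes the shares in these libraries were 35.2 to 41.4% for H4ac and 3.78 to 13.6% for H3K27me3. H3K27me3 only genes had H3K27me3 in 47.9 to 93.6% of cases, and genes with both marks in 45.7 to 92.6%. The lowest of these shares came from WT +MeJA, a library of 577986 tags, and the others were 74.3% or more for H3K27me3 only. The modelled fragment length was 209 bp in *axe1-5* +MeJA replicate 2 and 282 bp in *axe1-5* replicate 1, apart from the 52 to 61 bp of the other H3K27me3 libraries; those libraries gave 77.6% and 74.3%. Genes with both marks kept an H4ac summit in 92.6 to 97.9% of cases.

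The share of H3K27me3 only genes with an H4ac summit varied among the other libraries. It was 22.4% and 18.4% in *axe1-5* +MeJA and 13.6% and 7.91% in *axe1-5*, against 5.24% and 7.02% in WT +MeJA. Genes with neither mark gave 13.1% and 10.3% in *axe1-5* +MeJA and 10.3% and 6.56% in *axe1-5*, against 7.20% and 7.84% in WT +MeJA. The H3K27me3 only genes thus lay below the genes with neither mark in both libraries of WT +MeJA and above them in all 4 libraries of *axe1-5*. Of H3K27me3 only genes 95.1% were protein-coding, against 52.4% of genes with neither mark, so these classes are not alike in kind of gene. The order was not tested, nor was it taken among protein-coding genes alone. The *axe1-5* +MeJA libraries were the deepest of all with 10569841 and 14717755 tags, a part that was not tested. In *axe1-5*, where both replicates of both marks could be classed, 87.4% of H4ac only, 54.3% of H3K27me3 only, 61.7% of both marks and 82.3% of neither kept their class, and 91 of the 1909 H3K27me3 only genes had both marks. In *axe1-5* +MeJA the shares were 78.7%, 54.7%, 76.6% and 78.2%, and 262 of the 1909 had both marks.

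**Figure D5:**
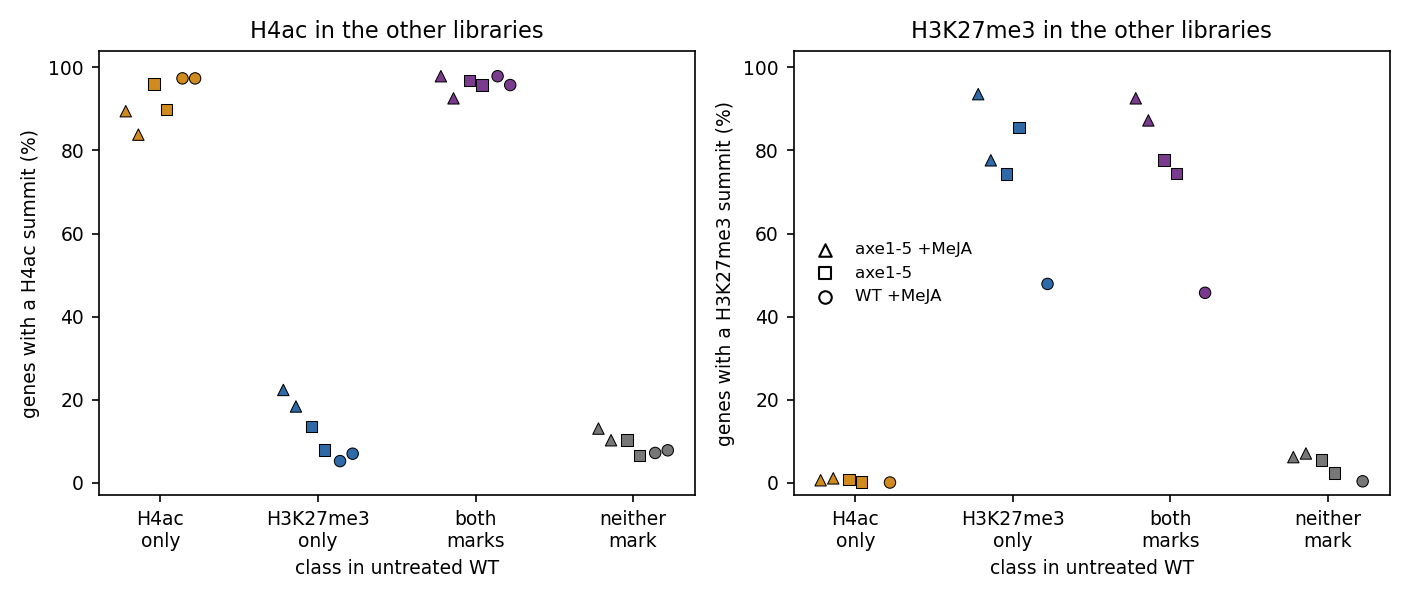
Share of genes (y axis, %) of each untreated WT class (x axis) with a summit of H4ac (left) or H3K27me3 (right) in each library of the other conditions, 1 point per library. H4ac only genes keep H4ac in 83.8 to 97.4% and genes with both marks in 92.6 to 97.9%, while H3K27me3 only genes show H4ac in 5.24 to 22.4%. Of all nuclear genes, 35.2 to 41.4% have an H4ac summit in these libraries.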

How the data were processed

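ChIP-Seq peak lists of H4ac and H3K27me3 from untreated WT seedlings were used, with 2 independent biological replicates per mark, and 11 lists of the other conditions for persistence. Per the submitters' processing notes, reads were trimmed with Trimmomatic 0.36.5, aligned to TAIR10 with Bowtie, and peaks were called per library with MACS 1.4.2 against the input of that replicate, without pooling. According to the deposited headers the p cutoff was 1e-05, the effective genome size 135000000, and 1 tag per position was kept, which lowers high peaks most. The deposited tag counts are tags in a peak, and the deposited score is MACS's p-value as 10 times its negative log10. The deposited fold enrichment is MACS's ratio of ChIP signal to the level modelled from input after the larger library was scaled down. The deposited FDR is a percent from swapping antibody and input.

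Summits were placed in nuclear genes of the RefSeq annotation of TAIR10.1, whose chromosome lengths hold all peaks (0 peaks past an end). A mark was present where a summit lay in the gene in both replicates and absent where it lay there in neither. Named genes were the members of 10 lists, the 5 genes of each single-mark class with the highest lower-replicate fold enrichment, and the 5 genes with both marks with the highest lowest rank. Families were taken by words in RefSeq product names. Members and lists were chosen with earlier results of these data known, and the genes named AT-hook, the DNA-binding words and some genes with both marks after their values were seen. Library values were compared by exact permutation tests, two-sided. Shares carry 95% Wilson intervals, which cover counting error only. Alternatives changed the score, FDR, number of peaks, overlap rule, gene window, gene set and replicates. Motifs were searched on both strands of the 250 bp before each protein-coding gene, and sequences were read from the RefSeq genome. The gene assignment was tested on simulated peaks. Tests used scipy 1.17.1, tables pandas 2.3.3 with numpy 2.4.6, all under Python 3.11.15.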

Additional observations from a re-analysis of the deposited data

How the results depend on the processing

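Both H4ac libraries lay above both H3K27me3 libraries in summits behind a gene start and inside genes when peaks were filtered by score or by FDR, with equal numbers of peaks and with peak midpoints, and in median peak length under the same settings but midpoints, which leave it as it is. With marks swapped only within a replicate number (a replicate block, or pairing) the differences were 41.8 points, 26.7 points and 1195 bp, each with an exact p of 0.5, the smallest this pairing allows; whether same-numbered libraries shared a culture is not given in the sources used here. Class sizes moved more. With a score of at least 100, H3K27me3 only held 835 genes and both marks 10, and 1.16% of H3K27me3 genes had H4ac. With equal numbers of peaks H4ac only held 4166 genes, both marks 13, and the share was 0.634%. Any overlap of gene and peak gave 208 genes with both marks (8.59%), cover of at least 50% of the gene gave 7164 H4ac only, 161 H3K27me3 only and 2 with both marks (1.2%), and adding 2000 bp upstream gave 595 with both (17.6%). A mark in at least 1 replicate gave 4089 H3K27me3 only genes and 438 with both (9.68%). Protein-coding genes alone had 10162 with neither mark, and without overlapping genes 6908 were H4ac only. Leaving out replicate 2 or replicate 1 gave 2212 to 3946 H3K27me3 only genes, 12180 to 12789 H4ac only, 176 to 290 with both marks, 20874 to 23331 with neither, and shares of 6.85 to 7.37%; the differences between libraries were 40.5 to 43.1 points, 24.9 to 28.5 points and 739 to 1651 bp. An FDR of at most 5% and peak midpoints in place of summits left each class within 1.5 times its size. The shallow H3K27me3 library of replicate 1 limits how many genes can be called in both replicates, and 1 tag per position limits the highest enrichments.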

Other observations

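Non-coding genes were mostly without either mark. Of 4843 pseudogenes, 115 were H4ac only, 49 H3K27me3 only, 4 had both marks and 4504 (93.0%) had neither. Of 3480 long non-coding RNA genes, 312 (8.97%) were H4ac only, 30 H3K27me3 only and 2837 (81.5%) had neither. Of 326 microRNA genes, 11 were H4ac only and 3 H3K27me3 only, and all 625 transfer RNA genes had neither. Over all 19386 genes with neither mark 3270 (16.9%) were touched by an H4ac peak in both replicates.

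Chromosome bins of 1 Mb with few protein-coding genes held 3.39% of H4ac only, 2.36% of H3K27me3 only, 2.13% of both marks and 19.9% of neither, against 11.6% of all genes. Among protein-coding genes alone the shares were 3.00%, 2.15%, 1.12% and 7.03%, against 4.22% of all. H4ac summits lay in such bins in 3.51% and 3.34% of cases in replicates 1 and 2, and H3K27me3 summits in 8.41% and 2.55%, so the H3K27me3 replicates lay on either side of the H4ac libraries.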
